A study of Mus musculus with 6 samples.

Results

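The retina of mice that received the compound SH-42 was compared with that of mice that received saline, 7 days after the injection. The comparison comprised the 3 dual-colour microarrays labelled SH-42, out of 6 in the series, and on each of them a pool labelled SH-42 (Cy3, green dye) was set against a pool labelled control (Cy5, red dye). Adult male mice of the C57BL/6 strain, with 12 in each group by the labels, were injected in the vitreous of the right eye with 1 µM SH-42 or with phosphate-buffered saline. Another group received SH-80, another compound known here by its code name, and its 3 arrays were used to estimate the spread between arrays and for a single direct comparison. Every mouse was thus injected, the control mice included, and RNA was taken from 4 retinas pooled in a tube. Whether the arrays used separate pools is not in the labels, and 12 control mice would give 3 pools for 6 arrays, so p-values measure only the spread between these arrays.

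The retina holds rod and cone photoreceptors, the interneurons behind them (bipolar, horizontal and amacrine cells), ganglion cells whose axons form the optic nerve, and the Müller glia that span the tissue. Microglia are its resident phagocytes. After injury they can be joined by macrophages from the blood, while Müller glia and astrocytes raise the filament protein Gfap. An injection needle passes the eye wall beside the ciliary body and close to the lens, and both tissues, as well as eye muscle, can be carried along in dissection. In pooled tissue, fewer cells of a type and less RNA per cell cannot be told apart.

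Each value given is the log2 ratio of Cy3 to Cy5 after background correction and dye normalization, averaged over the 3 arrays unless an array is named. "Higher" and "lower" mean Cy3 relative to Cy5. By the labels this is SH-42 relative to control, but the deposited value table runs from Cy5 to Cy3, and no array had the dyes exchanged. Which channel held the treated RNA is thus not certain, and a dye effect of a gene cannot be told apart from a treatment effect. Cy3 signals hardly varied between arrays, and whether the Cy3 channels held 1 common RNA is not certain either. In that case the arrays would not be separate samples of the treated tissue. A total of 24409 probes or genes were tested, 15930 of them with a gene symbol, and all are called genes here. In Cy3, 58.3% to 63.1% of spots were called well above background, and in Cy5 70.9% to 74.0%, with 0 saturated spots. Markers of the labelled tissue were detected, with 25 of 25 rod genes and 20 of 20 bipolar cell genes above background in both channels on all 3 arrays, but so were 24 of 24 lens genes and 23 of 23 microglial genes.

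Replicate 1 stood apart before any test. The SD of its log ratios over all genes was 0.497, against 0.157 for replicate 2 and 0.328 for replicate 3. On replicate 1, 6.34% of genes lay more than 1 log2 unit from 0, on replicate 2 only 0.111% and on replicate 3 1.51%. Taken over genes (not independent replicates), replicates 2 and 3 correlated at r = 0.601, and replicate 1 at r = 0.0327 with replicate 2 and -0.0617 with replicate 3. The divergence lay mostly in the red channel. Over 18565 genes bright in both channels, the 3 arrays had a median SD of 0.0540 in the log2 signal of Cy3 and of 0.170 in that of Cy5, and Cy5 varied more for 85.3% of them. Replicates 1 and 2 shared a slide, whereas replicate 3 lay on the slide of the SH-80 arrays. Spots of 1 probe repeated on an array differed by an SD of 0.0384 to 0.0543.

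**Figure D1:**
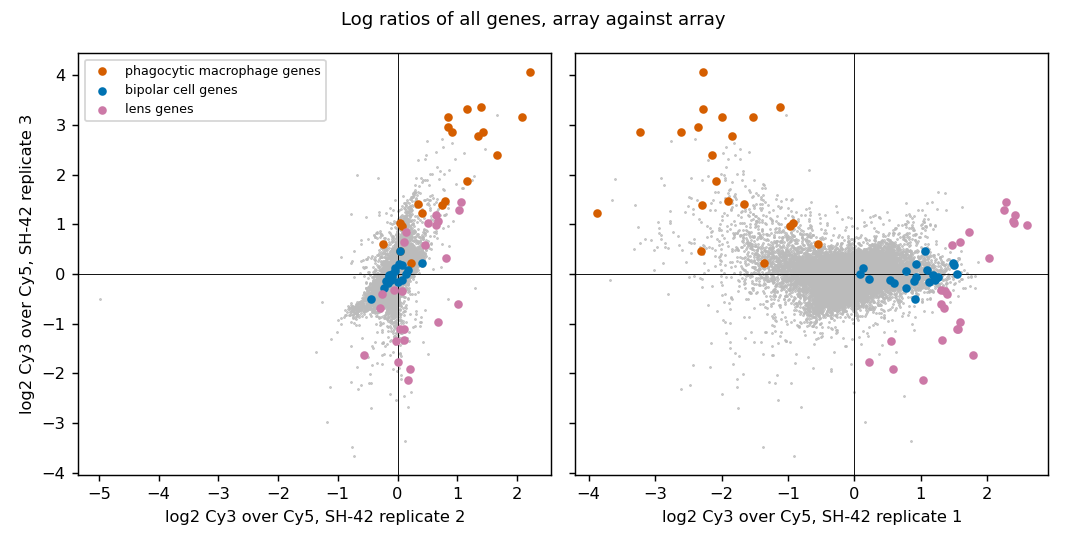
Each grey point is a gene, placed by its log2 ratio of Cy3 over Cy5 on 2 arrays: replicate 2 against replicate 3 at left, replicate 1 against replicate 3 at right. Phagocytic macrophage genes (orange) lay high on replicates 2 and 3 (list medians 0.840 and 2.13) and low on replicate 1 (-2.04), while bipolar cell genes (blue) and lens genes (pink) lay high on replicate 1 (0.926 and 1.55).

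The genes that passed the test over the 3 arrays were few, moderate in size and mostly lower. In the limma fit with Benjamini-Hochberg adjustment, 143 genes (0.586% of those tested) passed an adjusted p of 0.05, of which 13 were higher (0.0533%) and 130 lower (0.533%). The 13 had a median of 0.55 and the 130 a median of -0.64 (range -1.17 to -0.37). Of the lower genes, 94 differed by at least 1.5-fold and 1, a probe without a symbol, by at least 2-fold. All 130 were negative on the 3 arrays, as were 28.2% of all genes, while 19.0% of all genes were positive on the 3. Without adjustment, 5722 genes had a p under 0.05, and 2252 of these were higher. The lower genes were concentrated at high signal. Of the 130, 107 had a mean log2 signal of at least 11.38, as did 6102 of all genes, and all 130 stood above background in both channels on all 3 arrays. Of 46 lower genes with a further probe, all 46 had further probes nearer to 0, with a median of -0.02, and for 24 at least 1 further probe had the opposite sign. The count moved with single arrays. It was 432 without replicate 1, 1 without replicate 2 and 0 without replicate 3, and also 0 when any 1 of the SH-80 arrays, which share in the estimate of spread, was left out. It was also 0 with slide as a fixed block (limma, 5461 at an unadjusted p under 0.05) and 0 with the SH-42 arrays fitted by themselves (limma, 2418 unadjusted).

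**Figure D2:**
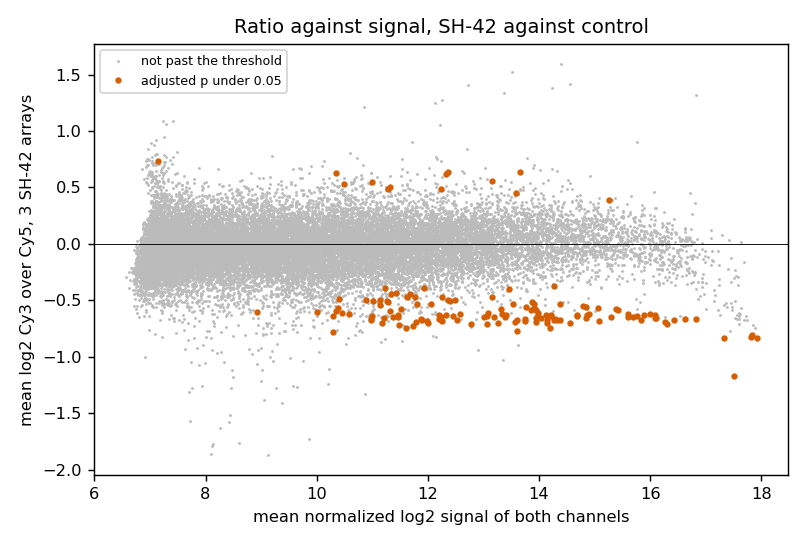
Each point is a gene, with the mean normalized log2 signal of both channels on the x axis and the mean log2 ratio of Cy3 over Cy5 on the 3 SH-42 arrays on the y axis. The genes that passed (orange, 13 higher and 130 lower) form a band near the median of -0.64 on the lower side, and 107 of these 130 lie at a mean log2 signal of 11.38 or more.

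The gene with the largest mean among the named rises was H1f4, a linker histone that binds DNA between nucleosomes. Its Cy3 signal was 12.71, 12.73 and 12.63 (log2) on replicates 1 to 3 and its Cy5 signal 12.22, 11.86 and 12.07. The lowest Cy3 value thus lay above the highest Cy5 value. Its log ratios were 0.49, 0.87 and 0.56, with a mean of 0.64 ± 0.0814 (SE, n = 3, limma adjusted p = 0.0379, 95% interval 0.44 to 0.84). Of 10 histone genes measured, H1f4 was the single one that passed, where 0.0533% of all genes passed as higher. The core histone variant gene H2ax lay at 0.43 ± 0.0654 (limma adjusted p = 0.0634) and the linker histone gene H1f5 at -0.63 ± 0.256.

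Ankrd12, an ankyrin repeat protein of the nucleus, had log ratios of 0.56, 0.75 and 0.61 and a mean of 0.64 ± 0.0623 (limma adjusted p = 0.0294). Its Cy3 signal of 13.96 to 13.98 lay above its Cy5 signal of 13.22 to 13.42 on every array, although its other probe gave only 0.23. The adhesion molecule gene Cadm4 was higher at 0.75, 0.42 and 0.70 (mean 0.62 ± 0.0769). Hcls1, a cytoskeletal adaptor of blood cells, was higher at 0.77, 0.56 and 0.51 (mean 0.62 ± 0.0822). The steadiest was Lrp12, a gene of the LDL receptor family, at 0.54, 0.53 and 0.52 (mean 0.53 ± 0.0537, limma adjusted p = 0.0294). Sympk, a scaffold of mRNA 3′ end processing, was higher at a mean of 0.50. Rsrc2 and Zc3h11a, a zinc finger gene linked to mRNA export, passed at 0.49 and 0.45, but lay at -0.00033 and -0.12 when arrays were centred on their median without loess, a scaling under which the median over all genes was -0.25 and not -0.03. Zbtb44 (0.55) and Spryd3 (0.49) also passed, with other probes at -0.02 to 0.07 and at -0.08. Rpl3, of the large ribosomal subunit, passed at 0.39 ± 0.0537. It was the single one of 40 ribosomal protein genes to do so, where 0.0533% of all genes passed as higher. The median of the 40 was 0.03 on this scaling and -0.67 with median centring.

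Among the lower genes, several with the strongest signal on the array led. Slc10a1, the bile acid transporter of liver, had a Cy3 signal of 17.53, 17.32 and 17.39 and a Cy5 signal of 18.05, 18.26 and 18.40. The channels did not overlap. Its log ratios were -0.52, -0.94 and -1.01, with a mean of -0.82 ± 0.11 (SE, n = 3, limma adjusted p = 0.0436). F10, the coagulation factor X gene, lay at -0.59, -0.95 and -0.88 (mean -0.81 ± 0.103), and Kctd14 at -0.59, -0.99 and -0.93 (mean -0.84 ± 0.111). For these 3 genes, as for most of the named falls, replicate 1 lay nearest to 0. Other probes of Kctd14 gave -0.23 to 0.20. By mean signal, Slc10a1, F10 and Kctd14 ranked at percentiles 99.98, 99.99 and 100 of all genes. Elk1 had a like mean signal (17.89) and like log ratios (-0.472, -0.891 and -0.865), but did not pass (limma adjusted p = 0.0576). Whether these probes read the transcripts they are named for was not tested. Of 15 measured coagulation and liver genes, 2 passed (Slc10a1 and F10), against 0.533% of all genes, and 8 were negative on all 3 arrays, against 28.2%. The Cy3 signal of 7 of the 15 was above background on none of the arrays. The list was chosen with earlier results of these data known, so its counts only describe the arrays.

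Tnfrsf9, a costimulatory receptor of T cells, was lower at -0.69, -0.68 and -0.80 (mean -0.72 ± 0.0637, limma adjusted p = 0.0294), and its other probe gave -0.52. The zinc finger gene Zfp628 (-0.84) and the spindle gene Knstrn (-0.77) passed by their brightest probe, while their other probes lay at -0.07 and 0.21. The small nuclear RNA gene Rnu2-10 lay at -0.68, -0.65 and -1.02 (mean -0.78 ± 0.0977). Spag7, the lipid-binding family gene Bpifc and the ubiquitin ligase gene Hecw1 passed at -0.71 each. Pdia3, a disulphide isomerase of the endoplasmic reticulum, was lower at -0.72, -0.43 and -0.59 (mean -0.58 ± 0.0706). On the SH-80 arrays, whose control pools may be the same, the median was -0.70 for the 130 lower genes and 0.42 for the 13 higher genes. Single means there were -1.11 for Slc10a1, -0.95 for F10, -1.05 for Kctd14 and -0.78 for Tnfrsf9, but -0.04 for Pdia3 and -0.10 for H1f4.

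**Figure D3:**
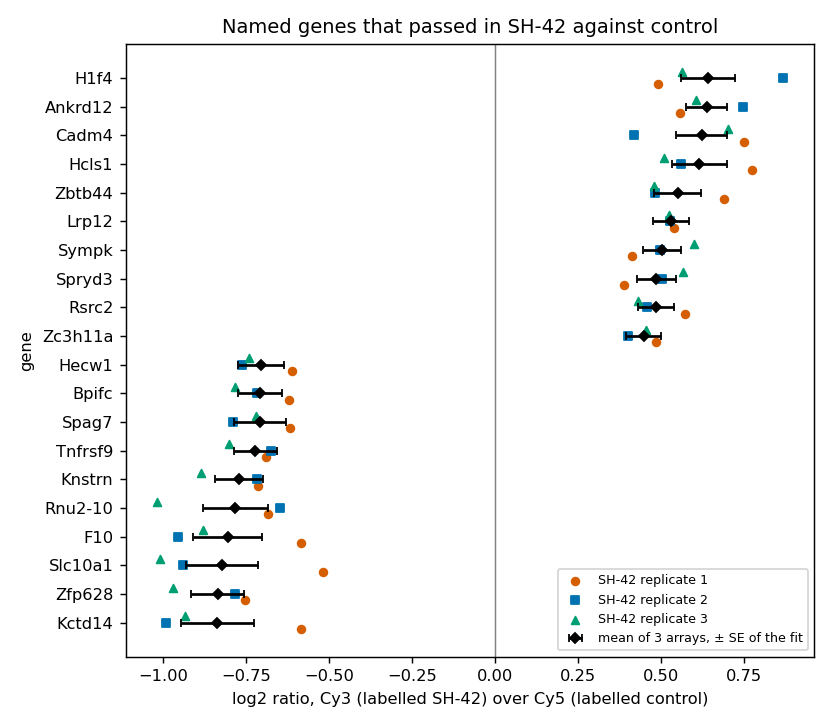
Log2 ratio of Cy3 (labelled SH-42) over Cy5 (labelled control) for the 20 named genes that passed. Coloured symbols are the 3 arrays and black diamonds the mean with the standard error of the fit. All rises lay between 0.39 and 0.87 and all falls between -0.52 and -1.02 on single arrays, and replicate 1 lay closest to 0 for Slc10a1, F10 and Kctd14.

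Much larger differences were seen on single arrays, and they did not repeat on all 3. Only 2 genes lay above 1 on all 3 arrays and 2 below -1, whereas on replicates 2 and 3 alone 18 lay above 1 and 5 below -1. The genes with the highest ratios on replicates 2 and 3 were those of macrophages that take up debris. Lyz1, a lysozyme gene of myeloid cells, lay at -2.28, 2.22 and 4.06 on replicates 1 to 3. Its Cy3 signal was 13.78, 14.19 and 14.15, while its Cy5 signal was 16.06, 11.97 and 10.09. The Cy3 values were close together and the Cy5 values spanned almost the whole difference, so the channels overlapped in rank across arrays. Its mean of 1.33 ± 1.08 did not pass (limma adjusted p = 0.467).

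Gpnmb, a membrane glycoprotein of phagocytes filled with debris, lay at -1.52, 2.09 and 3.16. Spp1, which encodes osteopontin, lay at -2.15, 1.67 and 2.39. The microglial signalling adaptor gene Tyrobp lay at -1.72, 1.46 and 2.52, and the platelet factor gene Pf4, also a gene of tissue macrophages, at -3.23, 1.43 and 2.85. Acp5, an acid phosphatase of macrophages and osteoclasts, lay at -1.12, 1.40 and 3.36, and the arginase gene Arg1 at -1.995, 0.84 and 3.15. None of these 6 genes passed over all 3 arrays (limma adjusted p from 0.359 to 0.848). In each, replicate 1 had the opposite sign to replicates 2 and 3.

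Among 20 phagocytic macrophage genes measured, 0, 19 and 20 were positive on replicates 1, 2 and 3. Their medians were -2.04, 0.84 and 2.13, with 0.33 for the means. Of all genes, 47.1%, 40.0% and 46.3% were positive on these arrays, and the median of the means was -0.03. This list, like those of lysosome and ciliary genes below, was put together after the values had been seen, so its counts only describe the arrays. With median centring its median was 0.06.

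The upstream sequences of 3 genes are shown because Lyz1 had the highest ratio on both replicates 2 and 3, Lyz2 is a near copy of Lyz1, and Lyz2 and Spp1 were among the 8 highest on replicate 2. Each run is the 250 bases before the RefSeq start site (GRCm38.p6), written 5′ to 3′ on the gene's strand. Lyz1 and Lyz2 lie on the minus strand at chr10:117292869-117293118 and chr10:117282273-117282522, and Spp1 on the plus strand at chr5:104434861-104435110, the first of its listed starts. Capitals mark matches to GAGGAAG or AGGAAGT, 2 overlapping 7-base words of the purine-rich kind bound by ETS factors such as PU.1, on either strand.
Lyz1: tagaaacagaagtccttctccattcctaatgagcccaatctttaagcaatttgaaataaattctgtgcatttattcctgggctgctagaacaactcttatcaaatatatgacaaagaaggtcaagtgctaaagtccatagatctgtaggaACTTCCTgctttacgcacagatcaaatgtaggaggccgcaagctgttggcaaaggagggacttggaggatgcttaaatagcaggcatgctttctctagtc
Lyz2: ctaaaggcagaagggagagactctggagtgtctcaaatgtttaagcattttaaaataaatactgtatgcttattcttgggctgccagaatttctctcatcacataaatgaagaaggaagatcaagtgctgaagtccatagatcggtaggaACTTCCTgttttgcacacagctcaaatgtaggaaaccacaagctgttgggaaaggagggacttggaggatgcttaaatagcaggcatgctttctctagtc
Spp1: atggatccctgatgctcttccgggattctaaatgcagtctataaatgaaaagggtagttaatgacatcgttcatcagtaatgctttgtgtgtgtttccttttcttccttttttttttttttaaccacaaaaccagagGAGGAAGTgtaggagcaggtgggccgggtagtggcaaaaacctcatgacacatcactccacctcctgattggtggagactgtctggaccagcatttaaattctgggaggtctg
Of the 12 genes with the highest ratios on replicate 2 or 3, 9 were in the promoter table, and 5 of these (Lyz1, Lyz2, Pf4, Spp1 and Wfdc17) held at least 1 of both words. The 3 genes shown are among these 5, so they do not stand for the whole set. On replicate 2, Gpnmb (2.09), C3 (1.66) and Acp5 (1.40) ranked above Lyz2 (1.34) but held neither word. Of the others above Lyz2, Pf4 (1.43) held both and Tyrobp (1.46) was not in the promoter table. Some genes have several promoters in the table, and the second listed start of Spp1 held neither word. By promoter, 5 of the 13 of these genes held a word, against 15.4% of all 32851 promoters of this length. The E-box CATGTG was found in 2 of the 13 (of Acp5 and Wfdc17), against 12.3% of all promoters, and the STAT-type motif TTCNNNGAA in 0 of 13, against 7.02%. A match is a description of letters and not a binding site. Compared position by position, the Lyz1 and Lyz2 runs had the same base at 152 of 250 positions (60.8%). The runs were not aligned, so any shift between them lowers this share. Whether the probes of Lyz1 and Lyz2 tell both transcripts apart was not tested.

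Lysosomal genes, which encode the enzymes that degrade what phagocytes take up, moved in the same way between arrays. Of 28 measured, 0 were positive on replicate 1, 25 on replicate 2 and 27 on replicate 3, with medians of -0.97, 0.27 and 0.55. The cathepsin gene Ctsd lay at -2.20, 1.29 and 1.97, and Psap, the precursor of lysosomal activator proteins, at -0.54, 0.80 and 1.21. An exception was Gla, the alpha-galactosidase gene, at -0.34, -0.78 and -0.77.

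Microglial genes followed. The SD of their 3 array medians was 1.475, against 2.136 for phagocytic macrophage genes and 0.806 for lysosomal genes. Of 23 measured, 0, 15 and 21 were positive on replicates 1, 2 and 3, with medians of -1.65, 0.08 and 1.29. Aif1, the microglial marker also called Iba1, lay at -1.65, 0.05 and 1.31 (mean -0.10 ± 0.488, limma adjusted p = 0.914). Its Cy3 signal of 10.36 to 10.51 hardly moved, while its Cy5 signal was 12.16, 10.31 and 9.12. The homeostatic marker P2ry12 lay at -0.13, -0.01 and 0.26, so it varied far less than Aif1. Trem2, the lipid receptor that signals through Tyrobp, lay at -1.97, 1.11 and 2.43. The integrin gene Itgam was an exception, at -0.03, -0.47 and -0.44 by its brightest probe.

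Among complement genes, C3, the central component, lay at -1.04, 1.66 and 3.20. Its Cy3 signal was 12.89, 12.83 and 12.96 and its Cy5 signal 13.93, 11.17 and 9.75. The mean of 1.28 ± 0.728 did not pass (limma adjusted p = 0.322), and its other probe gave 0.85. C1qa, which encodes a chain of the C1q complex that opens the classical pathway, lay at -1.77, 0.58 and 2.00. The factor B gene Cfb of the alternative pathway lay at -0.05, 0.05 and 1.14. Of 15 complement genes measured, 1, 10 and 14 were positive on replicates 1 to 3, with medians of -0.91, 0.07 and 1.14.

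Gfap, the filament gene of reactive glia, had log ratios of -1.97, -0.19 and 1.24 and a mean of -0.31 ± 0.534 (limma adjusted p = 0.729, 95% interval -1.60 to 0.98). Its Cy3 signal was 9.92, 10.02 and 10.01, and its Cy5 signal 11.89, 10.21 and 8.77. Of 21 gliosis genes, 1, 11 and 19 were positive on replicates 1, 2 and 3. Lcn2, an acute-phase protein that binds iron siderophores, lay at -0.69, 0.87 and 2.104. The neurotrophic cytokine gene Cntf lay at -2.01, -0.05 and -0.15. Genes of Müller glia, a list that shares Vim and Cd44 with the gliosis list, varied less on replicates 2 and 3. Their list medians were -1.06, 0.02 and 0.10. Glul, which makes glutamine from glutamate, lay at -0.07, 0.03 and -0.50.

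On replicate 2 the interferon response genes lay on the other side of 0 from the macrophage genes. Of 23 measured, 2, 1 and 22 were positive on replicates 1, 2 and 3. Their medians were -0.69, -0.16 and 0.38. Oasl2 lay at -1.32, -0.94 and 0.35, the ubiquitin-like gene Isg15 at -0.62, -0.77 and 0.22, and Ifit3 at -0.56, -0.63 and 0.03. None of these 3 passed (limma adjusted p from 0.168 to 0.247).

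**Figure D4:**
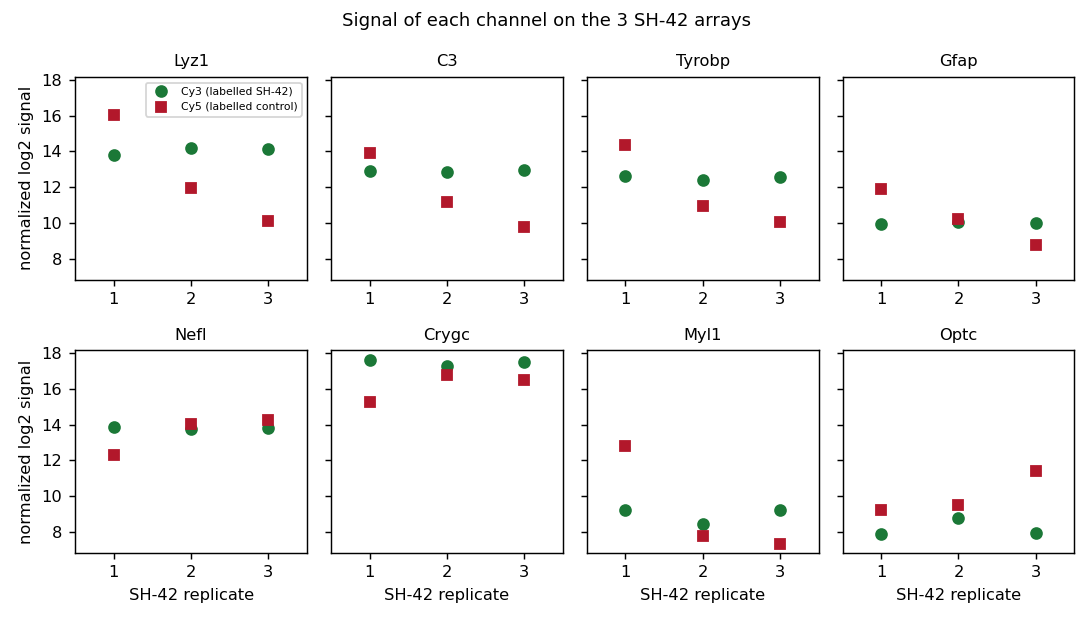
Normalized log2 signal of 8 genes on the 3 SH-42 arrays, in Cy3 (green circles, labelled SH-42) and in Cy5 (red squares, labelled control). For Lyz1, C3, Tyrobp and Gfap the Cy3 points stay level (for C3 12.83 to 12.96) while the Cy5 points are highest on replicate 1 and lowest on replicate 3 (for C3 13.93 and 9.75), whereas Nefl and Crygc have their lowest Cy5 point on replicate 1 and Optc its highest on replicate 3.

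Genes of retinal neurons were the counterpart on replicate 1. All 20 bipolar cell genes, all 25 rod genes and all 18 ganglion cell genes measured were positive there, with medians of 0.93, 0.54 and 0.94. On replicate 2 the medians were -0.07, -0.09 and -0.10, and on replicate 3 -0.04, -0.08 and -0.22. Over the 3 arrays the list medians were 0.30, 0.14 and 0.19, and they turned to -0.23, -0.60 and -0.23 with median centring. Amacrine cell genes ran alike, at 0.86, -0.08 and -0.03.

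Several neuronal genes kept their sign on all 3 arrays but did not pass. Positive on all 3 arrays were 5 of 25 rod, 5 of 16 cone, 7 of 22 synapse and 1 of 18 ganglion cell genes, against 19.0% of all genes. Pde6b, the rod phosphodiesterase subunit, lay at 1.097, 0.39 and 0.54 (mean 0.67 ± 0.139, limma adjusted p = 0.108). The cone phosphodiesterase gene Pde6h was steadier, at 0.29, 0.31 and 0.36 (mean 0.32 ± 0.0589, limma adjusted p = 0.0914). Dlg4, the scaffold of the postsynaptic density, lay at 0.73, 0.31 and 0.47 (mean 0.50 ± 0.0841, limma adjusted p = 0.0795). Nefl, the light chain of neurofilaments, lay at 1.55 on replicate 1 but at -0.29 and -0.43 on the others. Rbpms, a marker of ganglion cells, lay at 0.39, 0.01 and -0.03 (mean 0.12 ± 0.0922, limma adjusted p = 0.43), with its other probes at -0.10 to 0.34.

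Markers of tissues outside the neural retina moved with these differences between arrays. Of 24 lens genes, 24 were positive on replicate 1, 19 on replicate 2 and 10 on replicate 3, with medians of 1.55, 0.16 and -0.37. The gamma crystallins kept their sign on all 3 arrays. Cryge lay at 2.29, 1.06 and 1.44 (mean 1.60 ± 0.329, limma adjusted p = 0.108) and Crygf at 2.25, 1.03 and 1.29, and they were the 2 genes above 1 on all 3 arrays. The alpha crystallin gene Cryaa lay at 1.04, 0.17 and -2.14 instead. All 24 lens genes were above background in both channels on the 3 arrays. The summed lens signal (log2) was 19.59 to 19.94 in Cy3, and 18.44, 19.47 and 20.22 in Cy5 on replicates 1, 2 and 3. The part of lens tissue in the results was not tested.

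Skeletal muscle genes had a list median of -1.37 on replicate 1, with the fast myosin light chain gene Myl1 at -3.60 and the troponin gene Tnni2 at -3.30. On replicates 2 and 3 the list medians were 0.05 and 0.29. The Cy5 signal of Myl1 was 12.80 on replicate 1, against 7.74 and 7.34, while its Cy3 signal was 9.21, 8.44 and 9.24. In Cy3, 8 of 19 muscle genes were above background on all 3 arrays and 7 on none. The summed muscle signal was 15.18 (log2) in Cy5 on replicate 1 and 13.16 to 13.33 in all other channels. Genes of fibroblasts and matrix had a list median of -1.55 on replicate 1, -0.02 on replicate 2 and -0.07 on replicate 3, and their summed signal was 16.08 to 16.41 in Cy3 and 17.79, 16.51 and 16.61 in Cy5. The macrophage genes that lay low on replicate 1 thus lay low together with muscle and matrix genes, and the part of these tissues in the result was not tested.

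Ciliary epithelium genes were among the lowest on replicate 3, beside others such as R3hdml (0.85, 0.12 and -3.36) and the basement membrane genes Nid1 (-0.81, 0.18 and -2.68) and Col4a1 (-1.15, -0.02 and -2.54). Optc, which encodes the vitreous protein opticin, lay at -1.37, -0.77 and -3.48 (mean -1.87 ± 0.7, limma adjusted p = 0.188). Its Cy5 signal was 9.22, 9.52 and 11.41. The selenoprotein gene Gpx3 lay at -1.77, -1.12 and -2.28 and the sulphate transporter gene Slc13a4 at -1.29, -0.77 and -2.18. Slc26a4, an anion exchanger gene, lay at -0.91, -0.73 and -3.66, with a Cy3 signal not well above background on any of the 3 arrays. Its mean of -1.765 ± 0.8255 rests on replicate 3 and did not pass (limma adjusted p = 0.2519). The bound for its dim Cy3 signal, 3.4-fold lower in Cy3, only restates this mean and is not a minimum. The opioid precursor gene Penk lay at 0.16, -1.17 and -2.97. Of 16 ciliary genes, 9 were negative on all 3 arrays, and the list medians were -0.76, -0.18 and -1.13. Their summed signal was 14.71 to 14.75 in Cy3 and 15.04, 14.85 and 15.54 in Cy5, and the part of ciliary tissue in the result was not tested. Pigment epithelium genes had a median of 0.02, and Rpe65, the visual cycle isomerase, lay at 0.77, 0.51 and 1.44 (mean 0.91 ± 0.199, limma adjusted p = 0.124).

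Hmox1, the heme oxygenase that degrades heme and is induced by oxidative stress, lay at -1.96, -1.27 and -0.57. Its Cy3 signal was 8.76, 9.40 and 8.85 and its Cy5 signal 10.72, 10.67 and 9.42, so that the highest Cy3 value lay just below the lowest Cy5 value. The mean of -1.27 ± 0.238 missed the threshold (limma adjusted p = 0.0927), and its other probe gave -0.39. Haemoglobin and red cell genes were negative for 7 of 7 on every array (list medians -0.82, -0.19 and -0.18). Vegfa, the main growth factor of vessels, lay at -0.61, -0.20 and -0.14 (mean -0.32 ± 0.0986, limma adjusted p = 0.158). Sterol synthesis genes had 18 of 24 positive means and a median of 0.12, which turned to -0.15 with median centring. Replicate 1 carried that list (array medians 0.35, 0.01 and 0.06), and without it 14 of 24 were positive with a median of 0.0087. Fdps lay at 0.85, 0.34 and 0.16. Hypoxia response genes had a median of 0.01 (-0.39 with median centring), with 12 of 21 positive and the regulator Hif1a at 0.47, 0.34 and 0.44 (mean 0.42 ± 0.0723, limma adjusted p = 0.0848). Glycolysis genes had 13 of 20 positive means and a median of 0.03, which turned to -0.62 with median centring. At an unadjusted p under 0.05 (limma), 5 of the 20 lay on each side. Of all 24409 genes, 5722 had such a p, and 2252 of these were higher. The glycolysis genes included the enolase gene Eno1 at -0.83, -0.21 and -0.34. Pfkp, a phosphofructokinase, lay at 0.66, 0.41 and 0.48 (mean 0.52 ± 0.0721), just outside the threshold (limma adjusted p = 0.0501).

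**Figure D5:**
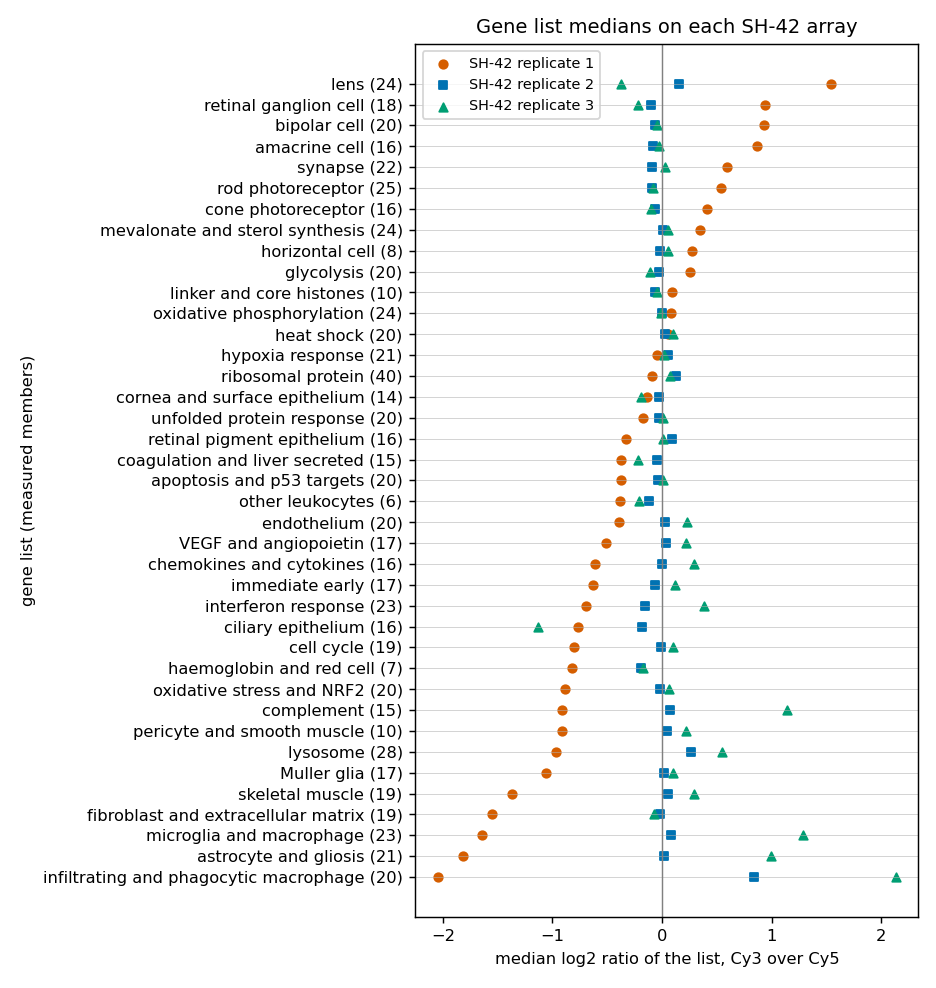
Median log2 ratio of Cy3 over Cy5 for each of 39 gene lists on the 3 SH-42 arrays, ordered by replicate 1, with the number of measured genes in brackets. Replicate 1 (orange) spans from -2.04 for phagocytic macrophage genes to 1.55 for lens genes, while replicate 2 (blue) stays near 0 for most lists and replicate 3 (green) is highest for macrophage, microglia and complement genes.

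Without replicate 1, the fit called 432 genes (1.77% of those tested), 84 higher (0.344%) and 348 lower (1.43%), and kept 141 of the 143. Of these, 19 were at least 2-fold higher. The largest were Lyz1 (3.14 ± 0.453, n = 2, limma adjusted p = 0.035) and C3 (2.43 ± 0.402, limma adjusted p = 0.0485). Replicates 2 and 3 lay at 2.22 and 4.06 for Lyz1 and at 1.66 and 3.20 for C3. Each SE without replicate 1 also draws on the spread of the SH-80 arrays, and not on these 2 values alone. Lyz2 (2.06), Spp1 (2.03), Tyrobp (1.99), Trem2 (1.77), Ctsd (1.63) and Mpeg1 (1.40), a pore-forming protein of macrophages, also passed. Replicate 1, on which Lyz1, C3, Lyz2, Spp1 and Tyrobp were negative, was left out because its values were known to stand apart. All calls without replicate 1 thus only describe replicates 2 and 3. Of 20 phagocytic macrophage genes, 5 passed as higher, namely Lyz1, Lyz2, Spp1, the lipid droplet gene Plin2 (1.13) and the growth factor gene Igf1 (1.06). Of 28 lysosomal genes, 6 were higher, among them Psap (1.01), Gusb (1.07) and Hexa (0.73), and Gla was lower (-0.77). The phagocytic macrophage and lysosome lists were put together after the values of these same arrays had been seen. Their counts thus only describe the arrays. Of 23 microglial genes, 4 were higher, and of 21 gliosis genes 0. The lens list had a median of -0.14 and no called member.

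Of the listed photoreceptor genes, 3 of 25 rod and 1 of 16 cone genes passed without replicate 1, all lower, against 1.43% of all genes. They were Reep6 (-0.61 ± 0.0609, n = 2, limma adjusted p = 0.0246), Prph2, the structural protein of outer segment discs (-0.54), Pde6g (-0.40) and the cone opsin gene Opn1mw (-0.52). The list medians were -0.09 for rod and -0.03 for cone genes. Rbp3, a photoreceptor gene outside these lists, was lower at -0.81 (limma adjusted p = 0.0246). H1f4 passed at 0.72 and H2ax passed at 0.49. Slc10a1 (-0.98), Kctd14 (-0.96) and F10 (-0.92) were the lowest genes with a symbol among those that passed.

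In the direct comparison with the SH-80 arrays, 0 of 24409 genes passed (0%, limma, smallest adjusted p = 0.69). At an unadjusted p under 0.05, 954 genes did (3.91%), where 1220 would by chance. A dye effect shared by all arrays cancels in this difference. The difference for H1f4 was 0.75 ± 0.115, with SH-80 at -0.14, -0.09 and -0.09 on its arrays and SH-42 at 0.49 to 0.87. For Hmox1 it was -1.79 ± 0.336, with SH-80 at 0.69, 0.53 and 0.34 (mean 0.52 ± 0.238). The difference with the smallest p was that of Saa3, an acute-phase serum amyloid gene, at -1.31 ± 0.16 (unadjusted p = 0.000136). None of these differences passed after adjustment, which does not show that the compounds acted alike.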

How the data were processed

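RNA of pooled mouse retinas was measured on dual-colour Agilent arrays. The deposited scanner files hold, per the file headers, spot and local background intensity in both channels. Agilent Feature Extraction is named there as version 11.0.1.1, and in the submitters' processing notes as 9.3.2.1. The deposited value table holds log2 of Cy5 over Cy3, as found from its values, and was used as an alternative.

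Median intensities were background-corrected by normexp (offset 50) and normalized by loess within each array (limma 3.58.1, R 4.3.3), with control spots at weight 0 and outlier spots left out. Of 39429 probes, 26055 (66.1%) matched a symbol through RefSeq names (GRCm38.p6). Probes had to exceed background clearly, in one channel or the other, on 3 or more of 6 arrays, which removed 9974, and the brightest probe represented each of 4204 genes with several. Signals per channel were taken after loess and Aquantile scaling. Where a channel stayed at background, its lowest detected signal, or the gene's own signal where that was higher, gave a bound. Such a bound is open to dye bias without dye swaps, and where the gene's own signal was used it is not a minimum.

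A model with 1 coefficient per compound was fitted to the 6 arrays (lmFit, eBayes; two-sided; Benjamini-Hochberg over all genes; threshold 0.05). The model was tested on simulated data. Named genes were the 10 largest rises and falls that passed with 1 sign on all 3 arrays, the 8 highest and lowest per array, up to 10 each with the largest smallest size over the 3 arrays, up to 4 members of smallest p per list, 10 genes of smallest p for SH-42 minus SH-80, and Gfap, C3, Rbpms, Aif1 and Vegfa. Others were chosen after their values were seen. The genes and the 39 lists were chosen with earlier results of these data known. Figures were drawn with matplotlib 3.10.9. Some results are withheld and not reported here.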

Additional observations from a re-analysis of the deposited data

Results flagged for a closer look

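Among the 10 genes with the smallest p for SH-42 minus SH-80, there were 5 for which every SH-42 array lay on one side of 0 and every SH-80 array on the other. The SH-42 minus SH-80 differences (log2) were 0.745 for H1f4, -1.787 for Hmox1, -0.511 for Tnpo1, a nuclear import receptor, -0.475 for Dynlt3, a dynein light chain, and -0.393 for Prmt1, an arginine methyltransferase. None passed in the test of the difference itself (limma adjusted p = 0.69 for each), and the genes were found by looking for small p-values in that same test. The other probe of Hmox1 gave -0.39 on the SH-42 arrays, that of Tnpo1 -0.53 and that of Prmt1 -0.16.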

How the results depend on the processing

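The count of 143 genes that passed for SH-42 depended on the processing, and the cause was not tested. It was 0 with a normexp offset of 0 (limma, 5371 at an unadjusted p under 0.05), 3208 with raw median signals (36.4% higher), 3225 with the scanner's processed signals (31.2% higher), 3802 with the deposited value table (29% higher), 9236 with median centring without loess (19.2% higher, against 9.09% in the reported fit) and 1 with scale normalization between arrays (7318 unadjusted). It was 79 with the mean of the probes of a gene, 0 if only SH-42 arrays entered the fit (limma, 2418 unadjusted), 0 with slide as a fixed block (limma, 5461 unadjusted) and 416 with array weights, which gave replicate 1 a weight of 0.185. Leaving out arrays gave 0 to 432. A stricter probe filter (199), no filter (126) and slide as a random block (128) kept it within 1.5 times. With the replicate number as a block it was 0 (limma, 4280 unadjusted), but same-numbered arrays deviated from their group means with correlations of -0.151, -0.43 and 0.182, so the labels share only a number. For SH-42 minus SH-80 it was 0 in every setting run (limma, 253 to 2608 unadjusted). Each of the 20 named genes that passed did so again in 7 to 10 of 20 alternatives. With median centring, Rsrc2 and Zc3h11a turned to -0.00033 and -0.115. The number of arrays limits the precision, and dim Cy3 signals allow bounds only.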
